A study of Mus musculus with 6 samples.

Results

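The 10 genes described here code for insulin-like growth factor 1 (Igf1), its receptor Igf1r, the binding proteins Igfbp2 to Igfbp7, the protease Pappa and the adaptor Irs1. They were taken by name, as every array probe whose platform gene symbol is one of the 10. This gave 23 of 45281 probes, for 10 of the 19057 genes with a probe of a single symbol. The cells were smooth muscle cells cultured from the aorta of FHL2-knockout mice (3 arrays) and of wild-type mice (3 arrays), all of strain C57Bl/6. FHL2 is an adaptor protein made of LIM domains, and the series asks what it does in vascular smooth muscle. Each array held RNA from 1 culture batch pooled from 3 aortas, so that 9 mice stood behind each genotype, and all cells had been confluent and without serum for 48 h. The age and sex of the mice and the part of Fhl2 that was deleted are not given in the sources used here.

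IGF1 is a secreted growth factor that binds the receptor tyrosine kinase IGF1R, which phosphorylates the adaptors IRS1 and IRS2 and through them activates PI3K and AKT. The IGF-binding proteins hold IGF outside the cell and can either keep it from the receptor or deliver it there. PAPP-A, the product of Pappa, is a secreted metalloprotease that cuts IGFBP4 and IGFBP5 and so frees IGF. In vascular smooth muscle, IGF1 made by the cells themselves is known as a signal for growth, survival and migration.

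Expression was measured on 1-colour Illumina beadchips, and values are background-corrected, quantile-normalized intensities on the log2 scale. A probe counted as detected on an array where its detection p, its rank against negative control beads, was under 0.05, and it was tested when detected on at least 3 of the 6 arrays. Between 14844 and 16115 of 45281 probes were detected per array, and wild-type replicate 2 was the dimmest array (median raw intensity 116, against 140 to 172 on the other arrays). Fhl2 itself was lower in all 3 knockout samples. Its brighter probe averaged 6.80 ± 0.21 in knockout and 11.37 ± 0.14 in wild-type cells (SD, n = 3 each), and its other probe was detected on 0 of 3 knockout and on 3 of 3 wild-type arrays. The smooth muscle genes Acta2 and Tagln were detected on all 6 arrays, Myh11 on 3, Myocd and Synpo2 on 1 each and Cnn1 on 0.

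FHL2-knockout cells had more Igf1 and Igfbp2 mRNA, and less Igfbp5, Igfbp6 and Pappa mRNA, than wild-type cells. The receptor gene Igf1r, the adaptor gene Irs1 and the genes Igfbp3, Igfbp4 and Igfbp7 did not pass the test. A gene is called higher or lower here when limma's adjusted p, Benjamini-Hochberg over all 15527 tested probes, was under 0.05, and it is read from its brightest tested probe. By this rule 2 of the 10 genes were higher and 3 lower, where 14.8% of all 9051 tested genes were higher and 16.5% lower. At the level of probes 9 of 18 tested were called, against 29.6% of all tested probes. The genotypes did not overlap for 6 of the 10 genes, while the same held for 47.8% of all tested genes. With 10 genes, these shares are descriptions and were not compared by a test. The median size of the log2 difference, without its sign, was 0.61 over the 10 genes and 0.30 over all tested genes.

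All 10 genes kept a probe that was detected on all 6 arrays, so that none entered the test through the genotype in which it was high. The 5 probes that were not tested, 1 of Igf1r and 4 of Igfbp7, were detected on no array. For the 6 genes with several tested probes, all probes of a gene had the same call.

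**Figure D1:**
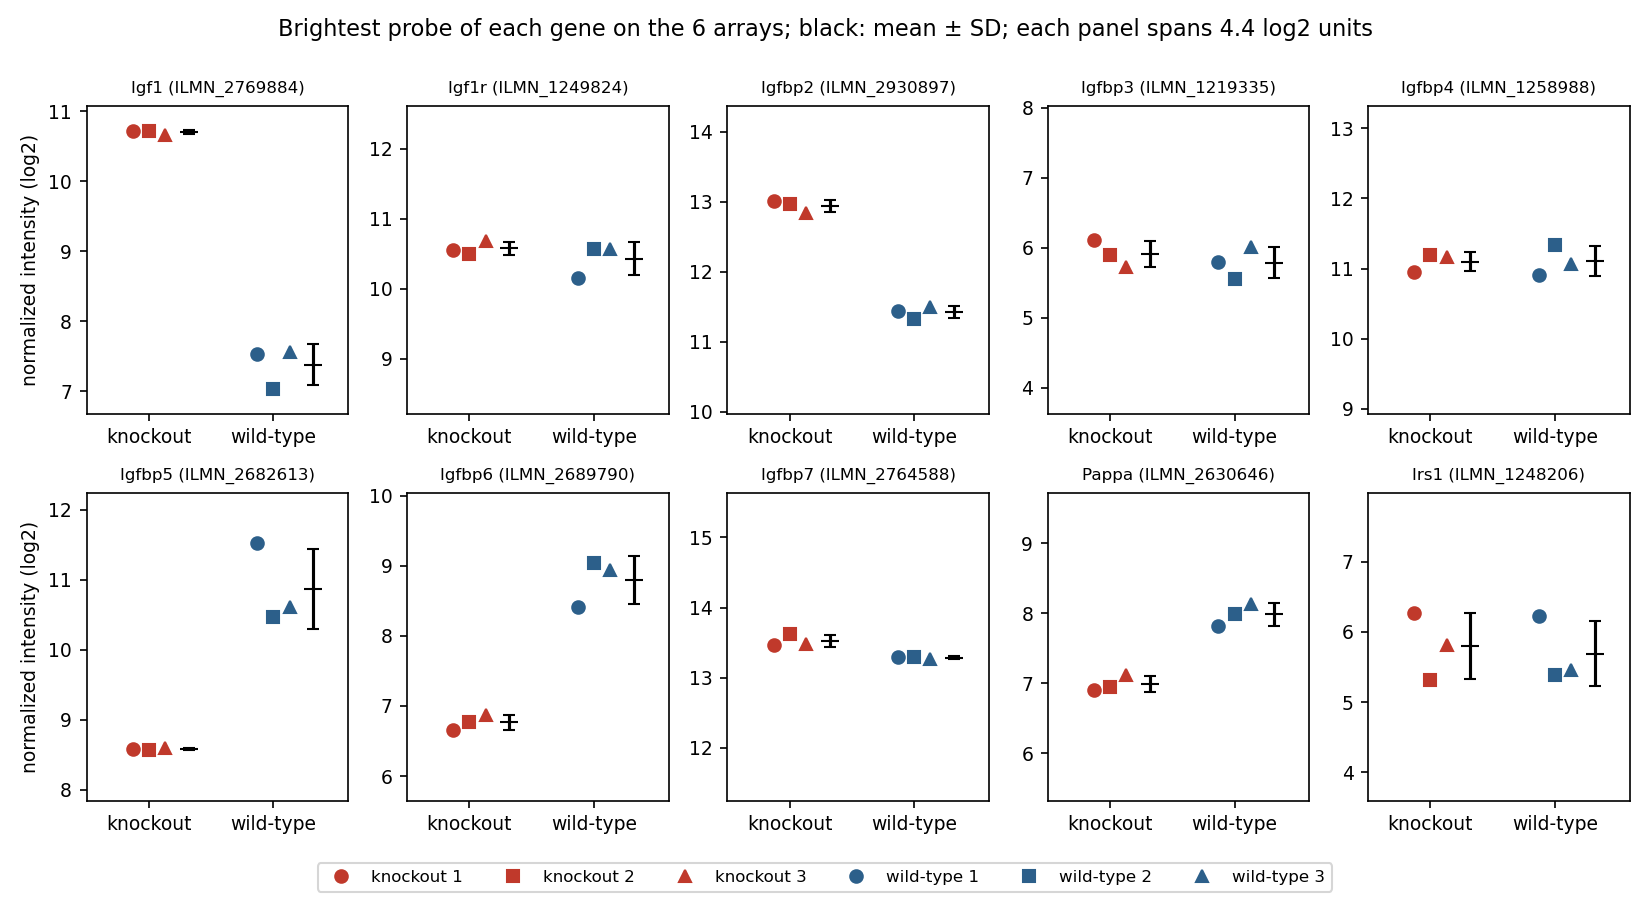
Normalized log2 intensity (y axis) of the brightest probe of each of the 10 genes in the 3 knockout (red) and 3 wild-type (blue) samples, with the symbol shape giving the replicate number and black bars the mean ± SD. All panels have the same height in log2 units. The samples of the genotypes lie apart for Igf1, Igfbp2, Igfbp5, Igfbp6 and Pappa and, by a small distance, for Igfbp7, and they overlap for Igf1r, Igfbp3, Igfbp4 and Irs1.

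The promoters of the 4 called genes that the RefSeq promoter table covers (mouse assembly GRCm38.p6) are shown because Igf1 and Igfbp2 rose while Igfbp5 and Igfbp6 fell. Each is the 250 bases upstream of the annotated start, 5′ to 3′ on the gene's strand, and capitals mark matches, on either strand, to 6 motifs. These were TATAAA (the TATA box), CCAAT (bound by NF-Y), GGGCGG (the GC box of SP1), CACGTG (an E-box), TGANTCA (the AP-1 site) and GTAAACA (the FOXO site). The windows are chr10:87860861-87861110 on the plus strand for Igf1, chr1:72824230-72824479 on the plus strand for Igfbp2, chr1:72874866-72875115 on the minus strand for Igfbp5 and chr15:102143936-102144185 on the plus strand for Igfbp6.
Igf1: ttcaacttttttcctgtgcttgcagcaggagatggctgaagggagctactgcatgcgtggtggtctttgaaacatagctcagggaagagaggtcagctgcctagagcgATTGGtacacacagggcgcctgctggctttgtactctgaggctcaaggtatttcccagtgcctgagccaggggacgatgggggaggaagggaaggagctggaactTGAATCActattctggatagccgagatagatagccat
Igfbp2: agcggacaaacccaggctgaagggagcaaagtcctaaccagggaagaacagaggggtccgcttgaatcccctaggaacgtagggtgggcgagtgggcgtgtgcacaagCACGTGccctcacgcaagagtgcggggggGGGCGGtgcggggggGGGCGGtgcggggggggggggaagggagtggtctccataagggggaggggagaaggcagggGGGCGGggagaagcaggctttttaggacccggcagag
Igfbp5: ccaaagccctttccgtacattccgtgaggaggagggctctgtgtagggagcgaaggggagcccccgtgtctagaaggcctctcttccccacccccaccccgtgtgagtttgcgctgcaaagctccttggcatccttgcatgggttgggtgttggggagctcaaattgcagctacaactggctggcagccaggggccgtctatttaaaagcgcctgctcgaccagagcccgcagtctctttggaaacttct
Igfbp6: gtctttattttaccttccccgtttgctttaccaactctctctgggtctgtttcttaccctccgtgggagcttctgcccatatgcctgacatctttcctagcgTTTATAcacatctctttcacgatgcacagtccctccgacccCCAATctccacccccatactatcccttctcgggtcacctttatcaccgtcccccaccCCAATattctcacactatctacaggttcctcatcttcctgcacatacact

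The Igf1 window held 1 CCAAT motif, read on the other strand, and 1 TGANTCA motif, which begin at -142 and -37 from the start. That of Igfbp2 held 3 GGGCGG motifs and 1 CACGTG motif, and RefSeq lists a further Igfbp2 start, whose window had 1 TGANTCA motif and is not printed. The Igfbp6 window held 2 CCAAT motifs and 1 TATAAA motif read on the other strand, and the Igfbp5 window held none of the 6. Among all 32851 windows of the same length, 33.8% had CCAAT, 32.7% GGGCGG, 12.4% TATAAA, 6.75% TGANTCA, 6.02% CACGTG and 3.17% GTAAACA. G and C made up 52.8% of the Igf1, 67.2% of the Igfbp2, 58.8% of the Igfbp5 and 49.6% of the Igfbp6 window, where the median of all windows was 52.4%. The motifs were chosen after the sequences were seen, and the Igf1 window lies at a start that is not the outermost one RefSeq gives the gene. A match is only a run of letters and was not tested as a binding site.

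Igf1, the ligand, had the largest difference of the 10 genes. Its brighter probe (ILMN_2769884) read 10.72, 10.71 and 10.66 in knockout replicates 1 to 3, against 7.54, 7.04 and 7.56 in wild-type replicates 1 to 3. The knockout samples lay within 0.06 of each other, and the lowest of them was far above the highest wild-type sample. The raw intensities behind these values were 1819, 1816 and 1485 in knockout cells, against 397, 171 and 375 in wild-type cells, so that Igf1 was separated before any normalization too. The difference was 3.32 ± 0.16 (SE) on the log2 scale, or 9.996-fold higher in knockout cells (limma adjusted p = 5.26e-06). The other Igf1 probe (ILMN_1225565) read 10.48, 10.69 and 10.63 in knockout and 7.05, 7.13 and 7.19 in wild-type cells, which was 11.1-fold higher (limma adjusted p = 1.24e-06). Among all tested probes, 99.6% had a difference no larger than that of either Igf1 probe.

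The size of the Igf1 difference depended on the background that was taken off. With no background correction it was 2.57, and the gene was still called.

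The genes whose pattern over the 6 arrays lay closest to that of Igf1, by Euclidean distance of log2 values centred on each gene's mean, were Cxadr, Ugt1a6b and Hopx. Cxadr, the coxsackievirus and adenovirus receptor of cell junctions, lay at a distance of 0.22. It read 9.81, 9.95 and 10.01 in knockout and 6.72, 6.35 and 6.71 in wild-type cells. Ugt1a6b, a glucuronosyltransferase whose probe may also bind other Ugt1a transcripts, lay at 0.33. The homeodomain-only protein gene Hopx, at 0.41, was detected on all 3 knockout arrays and on 0 wild-type arrays. Its rise in knockout cells was at least 9.47-fold, a bound that sets each wild-type value no lower than the dimmest detected probe of its array. All 3 were chosen for this likeness, so their differences between the genotypes are descriptions.

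The receptor gene Igf1r was not called by any of its 3 tested probes. The brightest (ILMN_1249824) read 10.56, 10.49 and 10.67 in knockout and 10.15, 10.57 and 10.56 in wild-type cells, a difference of 0.14 with a 95% interval from -0.20 to 0.49 (limma adjusted p = 0.521). A dimmer probe (ILMN_1239663) read 6.57, 6.75 and 6.46 in knockout and 6.18, 5.77 and 6.51 in wild-type cells, a difference of 0.44 with an interval from -0.01 to 0.89 (limma adjusted p = 0.130). The third tested probe, ILMN_2482214, gave 0.03 with an interval from -0.25 to 0.31. The upper ends of all 3 intervals lie far below the difference of the ligand gene.

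Irs1, the main adaptor of the receptor, was dim and variable within both genotypes. Its only probe (ILMN_1248206) read 6.27, 5.31 and 5.82 in knockout and 6.23, 5.39 and 5.45 in wild-type cells. Replicate 1 was the highest sample of both genotypes, and the genotypes overlapped. The difference was 0.11 with an interval from -0.56 to 0.78 (limma adjusted p = 0.821), so these arrays measured Irs1 less closely than the other 9 genes.

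**Figure D2:**
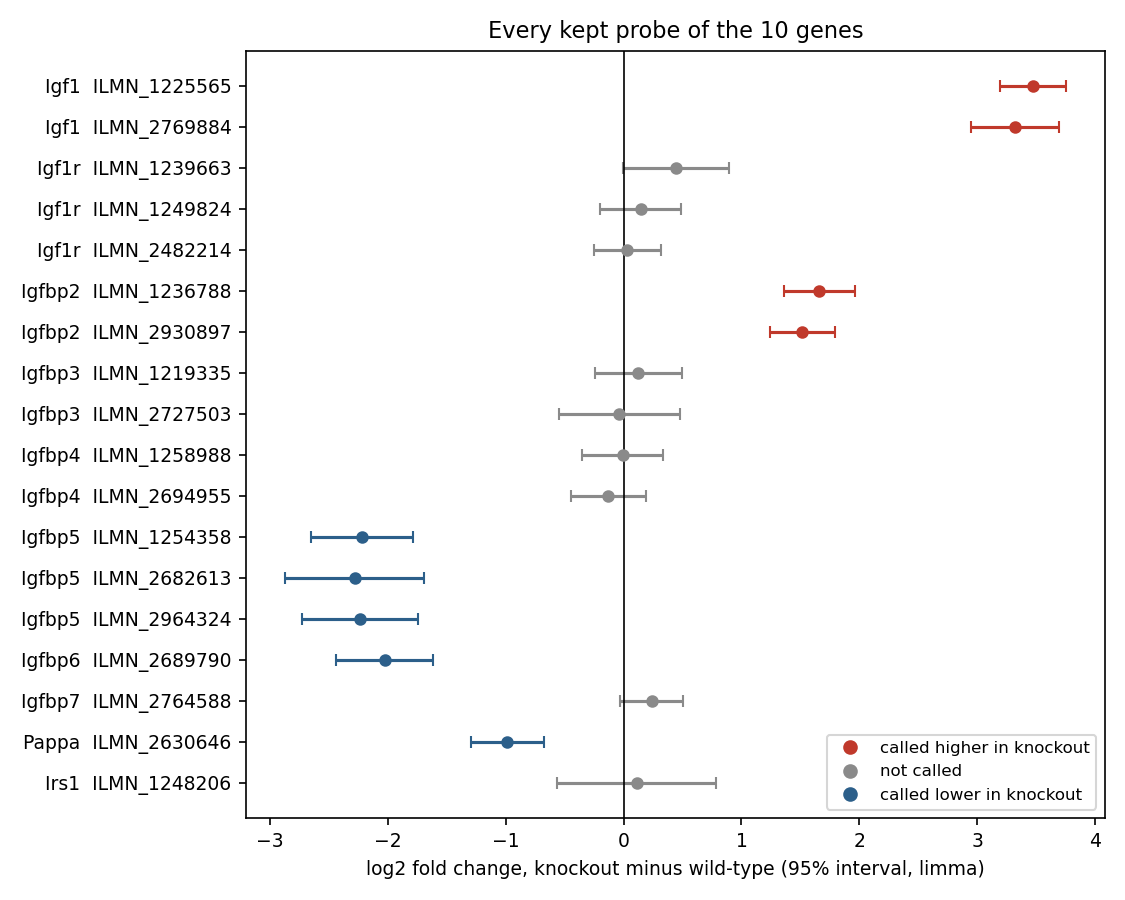
Log2 fold change, knockout minus wild-type (x axis), with its 95% interval from limma, for each of the 18 tested probes of the 10 genes. Probes of the same gene lie close together: both Igf1 and both Igfbp2 probes are right of 0, all 3 Igfbp5 probes are near -2.2, and every probe of Igf1r, Igfbp3 and Igfbp4 has an interval that includes 0.

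Among the binding proteins, Igfbp2 rose in knockout cells. IGFBP2 binds IGF and, through an integrin-binding motif, also the cell surface. Its brighter probe (ILMN_2930897) read 13.02, 12.97 and 12.85 in knockout and 11.44, 11.33 and 11.50 in wild-type cells. All 3 knockout samples were above all 3 wild-type samples, and the spread within each genotype was small beside the gap. The gene was 2.86-fold higher in knockout cells (1.52 ± 0.12, SE, on the log2 scale; limma adjusted p = 5.56e-05), and its other probe gave 3.16-fold (limma adjusted p = 5.27e-05).

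Igfbp5 went the other way. IGFBP5 binds IGF and the extracellular matrix, and is a substrate of PAPP-A. Its brightest probe (ILMN_2682613) read 8.59, 8.57 and 8.60 in knockout and 11.52, 10.47 and 10.62 in wild-type cells. The knockout samples were nearly equal, while wild-type replicate 1 stood 0.98 above the mean of the other wild-type samples. The same sample was the highest by both other Igfbp5 probes, at 10.05 and 8.90. The difference was -2.28 ± 0.26 (SE), or 4.87-fold lower in knockout cells (limma adjusted p = 3.64e-04), and -1.96 without wild-type replicate 1, still called. The other probes, ILMN_1254358 and ILMN_2964324, gave 4.66-fold and 4.72-fold lower (limma adjusted p = 8.09e-05 and 1.58e-04), so that 3 probes of unequal brightness measured nearly the same fold.

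Igfbp2 and Igfbp5, which changed in opposite directions, are next to each other among the protein-coding genes of chromosome 1 in the RefSeq table. Irs1 and Fhl2 are on the same chromosome. The other 7 genes are on chromosomes 4, 5, 7, 10, 11 (Igfbp3 and Igfbp4) and 15.

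Igfbp6, whose product prefers IGF2 over IGF1, was also lower. Its single probe (ILMN_2689790) read 6.66, 6.77 and 6.87 in knockout and 8.41, 9.04 and 8.95 in wild-type cells. No knockout sample came near a wild-type sample, and wild-type replicate 1, the highest for Igfbp5, was here the lowest wild-type sample. The difference was -2.03 ± 0.18 (SE), or 4.08-fold lower in knockout cells (limma adjusted p = 1.05e-04). With no background correction it was -1.26, still called.

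Igfbp3, Igfbp4 and Igfbp7 were not called. Igfbp3, the main carrier of IGF in blood, was dim, and its brighter probe (ILMN_1219335) read 6.10, 5.89 and 5.73 in knockout and 5.80, 5.56 and 6.00 in wild-type cells. The samples were interleaved, with a difference of 0.12 and an interval from -0.25 to 0.49 (limma adjusted p = 0.620). A dimmer Igfbp3 probe, detected on 4 of 6 arrays, gave -0.04. Igfbp4, an inhibitor of IGF action and the best known substrate of PAPP-A, read 10.95, 11.19 and 11.16 in knockout and 10.91, 11.34 and 11.07 in wild-type cells by ILMN_1258988. Its difference was -0.01 with an interval from -0.35 to 0.34 (limma adjusted p = 0.973), which is narrow beside the changes of Igfbp2, Igfbp5 and Igfbp6. Its other probe gave -0.13 with an interval from -0.45 to 0.19.

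Igfbp7, a matrix protein that binds IGF weakly, read 13.46, 13.62 and 13.48 in knockout and 13.29, 13.30 and 13.26 in wild-type cells by ILMN_2764588, the only one of its 5 probes that was detected. The genotypes did not overlap, but the difference was small, 0.24 with an interval from -0.03 to 0.50 (limma adjusted p = 0.164). With no background correction, or with a variance trend and robust estimation, the same probe was called higher (limma adjusted p = 0.0281 and 0.0256).

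Pappa, the protease that frees IGF from IGFBP4 and IGFBP5, was lower in knockout cells. Its single probe (ILMN_2630646) read 6.91, 6.95 and 7.12 in knockout and 7.82, 7.99 and 8.14 in wild-type cells. The normalized values did not overlap. The raw intensities did, at 248, 264 and 235 in knockout and 451, 232 and 496 in wild-type cells, and wild-type replicate 2 was the dimmest array throughout. The difference was -0.99 ± 0.13 (SE), or 1.99-fold lower in knockout cells (limma adjusted p = 1.03e-03), and -0.995 without wild-type replicate 2, still called.

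Other genes of the pathway were read from a list of 84, in which 77 had a probe and 54 were tested. Of these, 8 were higher and 13 lower in knockout cells (14.8% and 24.1%, beside 14.8% and 16.5% of all tested genes), with a median log2 difference of -0.01, as over all tested genes. Cish, 1 of the higher genes, was detected in knockout cells alone and so passed the filter only through the genotype in which it was high. At an unadjusted p under 0.05, 20.3% of all tested genes were higher and 21.8% lower. For 5 of the 23 list genes with several tested probes, another probe differed in its call. Examples below are mainly the called genes with the smallest p in each group.

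Proteases of the binding proteins and their inhibitors had 2 higher and 2 lower of 7 tested (28.6% each, beside 14.8% and 16.5% of all tested genes). With so few genes these shares are descriptions. The largest difference of the whole list that was higher was Stc2, which codes for stanniocalcin 2, an inhibitor of PAPP-A. It read 8.50, 8.68 and 8.65 in knockout and 5.86, 5.50 and 5.32 in wild-type cells, 8.29-fold higher in knockout cells (limma adjusted p = 6.74e-06). C1s1, a complement protease whose human counterpart cuts IGFBP5, was 3.04-fold lower (limma adjusted p = 2.23e-04). Htra4, of a serine protease family that cuts IGF-binding proteins, was 1.86-fold lower (limma adjusted p = 5.06e-03). Htra1, of the same family, was instead 1.47-fold higher (limma adjusted p = 9.33e-03), and its other tested probe was higher by 0.43 on the log2 scale (limma adjusted p = 0.0278). The proteases thus did not all change in the same direction. Stc2 was higher and Pappa lower in the same knockout cells, with all 3 samples on the same side for both genes.

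Growth hormone raises Igf1 in many tissues through its receptor GHR, JAK2 and STAT5. Of the 6 tested genes of this axis, 1 was higher and 2 were lower by limma (16.7% and 33.3%, beside 14.8% and 16.5% of all tested genes). The gene that was higher was Cish, described below. The 5 genes detected in both genotypes gave 2 lower and 0 higher, also at an unadjusted p under 0.05. Ghr read 12.03, 12.24 and 12.29 in knockout and 13.22, 13.36 and 13.24 in wild-type cells, 2.13-fold lower in knockout cells (limma adjusted p = 4.37e-04), and of its other tested probes ILMN_1247348 gave -1.64 (limma adjusted p = 4.91e-04) and ILMN_3138922 -0.41 (limma adjusted p = 0.0950). Jak2 was 1.45-fold lower (limma adjusted p = 0.0248). Cish, a feedback inhibitor induced by STAT5, was detected on 3 knockout arrays and on 0 wild-type arrays. It read 5.45, 5.38 and 5.95 in knockout and 5.21, 4.69 and 4.97 in wild-type cells. Its call is counted above, but its p-value is left out because the filter passed it through the knockout arrays alone.

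The other ligands and receptors of the family had 3 tested genes, and 0 of them were called by limma (2 of them at an unadjusted p under 0.05, as were 42.1% of all tested genes). Igf2 gave -0.35 ± 0.17 (SE), the IGF2 scavenger receptor gene Igf2r 0.30 ± 0.12 (SE) and the insulin receptor gene Insr -0.30 ± 0.12 (SE). Insrr, Igfbp1 and Igfbpl1 were detected on no array. The only tested gene of the IGF2 mRNA-binding proteins, Igf2bp3, read 5.47, 5.28 and 6.21 in knockout and 8.46, 8.14 and 8.20 in wild-type cells. It was lower in knockout cells by all 3 tested probes, at -2.61, -2.58 and -1.33 on the log2 scale (limma adjusted p = 1.16e-04, 1.28e-05 and 4.91e-04). The first of these, the brightest, was detected on 2 of 3 knockout arrays, so its size rests in part on a value not above background.

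Adaptors and receptor regulators had 1 higher and 1 lower of 9 tested (11.1% each, beside 14.8% and 16.5% of all tested genes). Grb10, an adaptor that restrains the insulin and IGF1 receptors, read 9.21, 9.29 and 9.17 in knockout and 10.69, 11.12 and 11.15 in wild-type cells, 3.39-fold lower in knockout cells (limma adjusted p = 8.94e-05). Ptpn1, a phosphatase that acts on the same receptors, was 1.97-fold higher (limma adjusted p = 7.10e-03). Irs2, the relative of Irs1, gave -0.14 with an interval from -0.43 to 0.16.

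In the PI3K, AKT and mTORC1 branch 4 of 18 tested genes were higher and 3 lower (22.2% and 16.7%, beside 14.8% and 16.5% of all tested genes). Pik3r3, a regulatory subunit of PI3K, was 3.45-fold higher (limma adjusted p = 3.91e-05), Ddit4, an inhibitor of mTORC1, 3.95-fold higher (limma adjusted p = 9.57e-05) and the catalytic subunit gene Pik3cb 2.27-fold higher (limma adjusted p = 3.36e-04). A second Mtor probe (ILMN_2563765) was higher by 1.01 (limma adjusted p = 4.94e-03), while the brightest Mtor probe gave 0.03 and was not called. Of the lower genes, Pik3r1, also a regulatory subunit of PI3K, was called by both tested probes, at -0.59 and -0.55 (limma adjusted p = 5.41e-03 and 0.0113). Tsc2 was not called by its other tested probes, at -0.30 and -0.17. Inppl1 was called by its brightest probe, at -0.45, and by another, at -0.51 (limma adjusted p = 0.0166 and 0.0151). It was not called by 1 of its other probes, at -0.44. The AKT genes Akt1 and Akt2 were detected on no array, so this branch was measured without them.

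FOXO factors are kept out of the nucleus by AKT, and their target genes are known to fall when IGF1 or insulin signals. Of 12 tested genes of this group, 4 were lower and 0 higher by limma (33.3% and 0%, beside 16.5% and 14.8% of all tested genes). At an unadjusted p under 0.05, 6 were lower and 0 higher, where 21.8% of all tested genes were lower. The median was -0.30. The 8 genes not called lay between -0.40 (Fbxo32) and 0.45 (Ccng2), with Cat at 0.11 and Sod2 at -0.005. Pdk4, which blocks pyruvate oxidation, read 7.67, 7.67 and 7.73 in knockout and 10.15, 10.08 and 10.18 in wild-type cells, 5.46-fold lower in knockout cells (limma adjusted p = 4.07e-06). Cited2, a transcriptional coregulator, was 2.80-fold lower (limma adjusted p = 4.26e-05), and its other tested probes gave -0.74 (limma adjusted p = 0.0130) and -0.81 (limma adjusted p = 0.0851). Txnip, an inhibitor of thioredoxin, was 2.66-fold lower (limma adjusted p = 7.42e-05). Each of these genes has other known regulators, and AKT activity was not measured. A link of these differences to that of Igf1 was not tested.

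**Figure D3:**
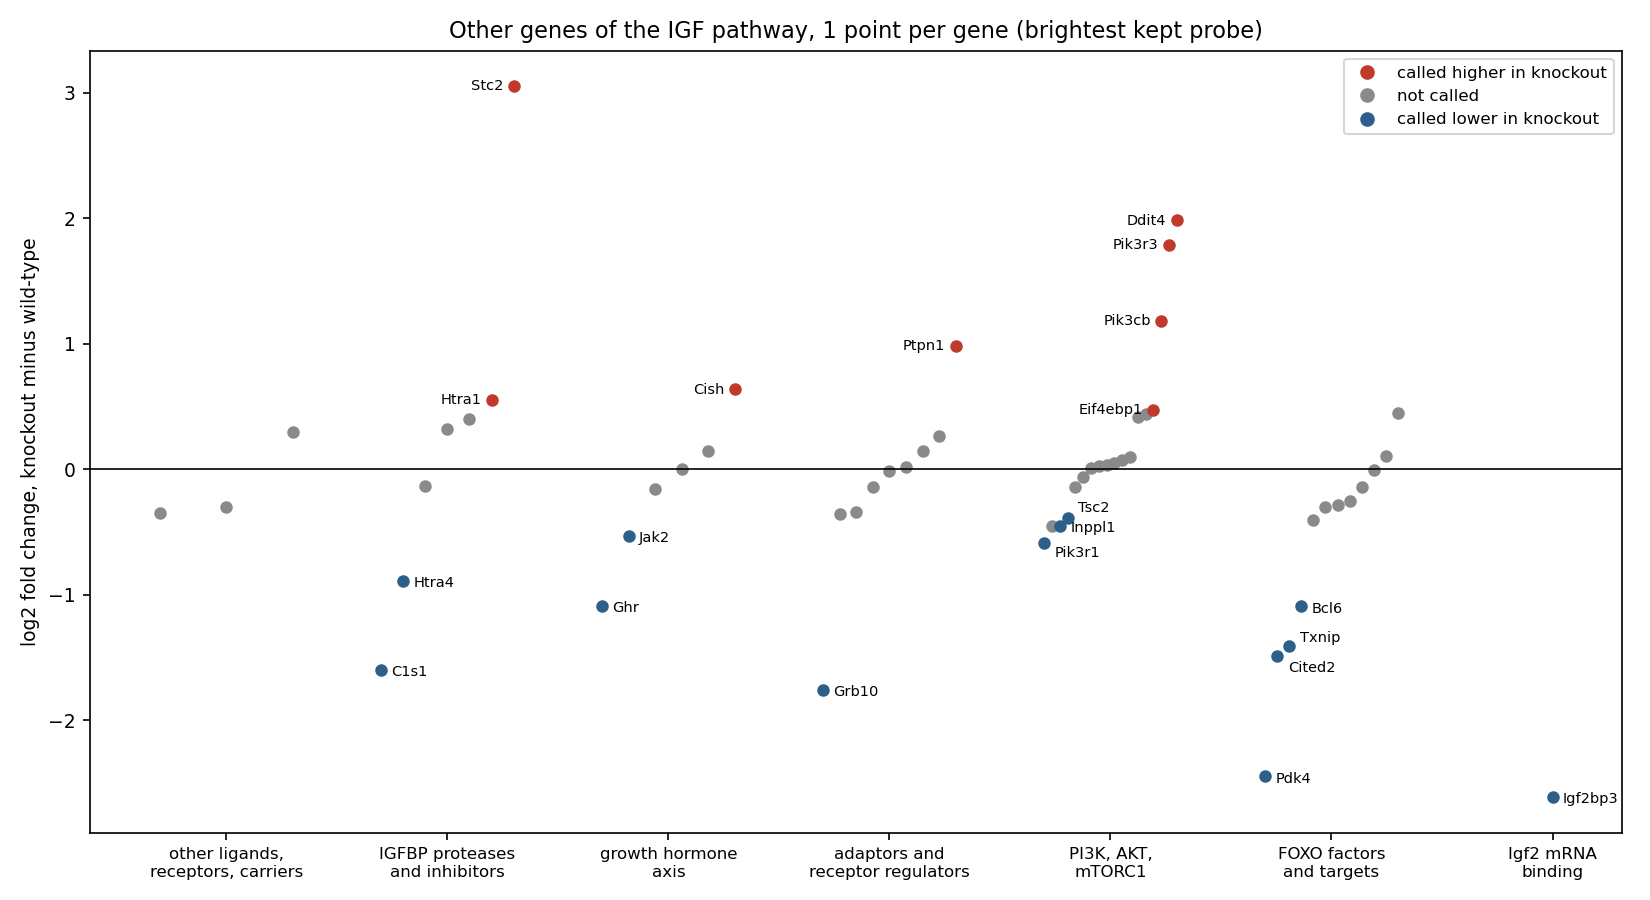
Log2 fold change, knockout minus wild-type (y axis), of the tested genes of 7 groups of the IGF pathway (x axis), 1 point per gene, red where called higher, blue where called lower and grey where not called. Irs2 and Insr stand in 2 groups each. Cish, drawn as called higher, passed the filter only through the knockout arrays. Stc2 at 3.05 is the highest point and Igf2bp3 at -2.61 the lowest, and all called genes of the FOXO group lie below 0.

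Markers of other cell types also differed between the genotypes, and in bulk RNA a change in the share of a cell type cannot be told apart from a change of RNA per cell. The normalized intensities of 9 mesothelial and epithelial markers summed to between 2762 and 2958 in knockout and between 270 and 288 in wild-type cells, and without the brightest, Upk1b, to between 1100 and 1214 in knockout and between 246 and 264 in wild-type cells. Msln and Upk1b were detected on 3 knockout and on 0 wild-type arrays, which alone passed them through the filter. Upk3b and Cdh1, detected in both genotypes, were called higher. Krt19, Krt8 and Krt18 were detected on too few arrays to be tested, and Lrrn4 and Epcam nowhere. The sum without Upk1b still held Upk3b and Msln. Their mean log2 values were 9.27 and 8.09 in knockout and 5.79 and 4.57 in wild-type cells. The sum of 10 endothelial markers lay between 292 and 303 in knockout and between 1728 and 2271 in wild-type cells, and without the brightest, Emcn, between 259 and 273 in knockout and between 834 and 968 in wild-type cells. Icam2, Esam, Egfl7, Emcn, Cdh5 and Pecam1 had a detected signal on 0 knockout and on 3 wild-type arrays, so that they passed the filter through the wild-type arrays alone and are given without a test. Kdr, detected on 3 knockout and 1 wild-type arrays, gave 0.30 and was not called, and Cldn5 was detected on no array. The 9 adventitial fibroblast markers with a probe summed to between 14297 and 16819 in knockout and between 11679 and 11992 in wild-type cells, and Dcn made up most of the knockout sum. Without Dcn the other 8 summed to between 1407 and 1500 in knockout and between 6173 and 6709 in wild-type cells. Dcn, Pi16 and Dpep1 were called higher, and Pdgfra, Scara5, Lum and Cd34 lower, while Clec3b was detected on 0 knockout arrays. The 7 adipocyte markers summed to between 685 and 788 in knockout and between 4707 and 5471 in wild-type cells, most of the wild-type sum being Lpl. Without Lpl the other 6 summed to between 532 and 671 in knockout and between 1287 and 1568 in wild-type cells. The 3 tested genes, Lpl, Pparg and Plin4, were called lower, beside 16.5% of all tested genes. Plin1 and Adipoq were detected on too few arrays to be tested, and Fabp4 and Cidec on no array. The macrophage markers Ptprc, Adgre1, Itgam, Mrc1, Tyrobp and Fcer1g were detected on no array. Of 3 tested macrophage and leukocyte genes 1 was higher, Cd14 at 0.94, and 1 lower, Lyz2 at -2.41 (33.3% each, beside 14.8% and 16.5% of all tested genes). The 9 markers with a probe summed to between 347 and 393 in knockout and between 571 and 663 in wild-type cells. Without the brightest, Lyz2, the sums were between 279 and 320 in knockout and between 242 and 250 in wild-type cells. The 10 smooth muscle markers summed to between 35111 and 38981 in knockout and between 22657 and 28964 in wild-type cells, nearly all of it Acta2. The other 9 summed to between 1367 and 1432 in knockout and between 1241 and 1489 in wild-type cells, which overlapped, and Acta2 and Lmod1 were called higher and Mylk lower. Xist, the RNA of the inactive X chromosome and so a mark of female cells, was detected on every wild-type array by 4 of 4 tested probes. These probes were detected on no knockout array, so that they passed the filter through the wild-type arrays alone. The Xist signal by these probes followed genotype on every array. For every gene compared here, a difference in sex between the pools therefore cannot be told apart from a difference in genotype. The part of the marker and Xist differences in the changes of Igf1, Igfbp2, Igfbp5, Igfbp6 and Pappa was not tested.

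**Figure D4:**
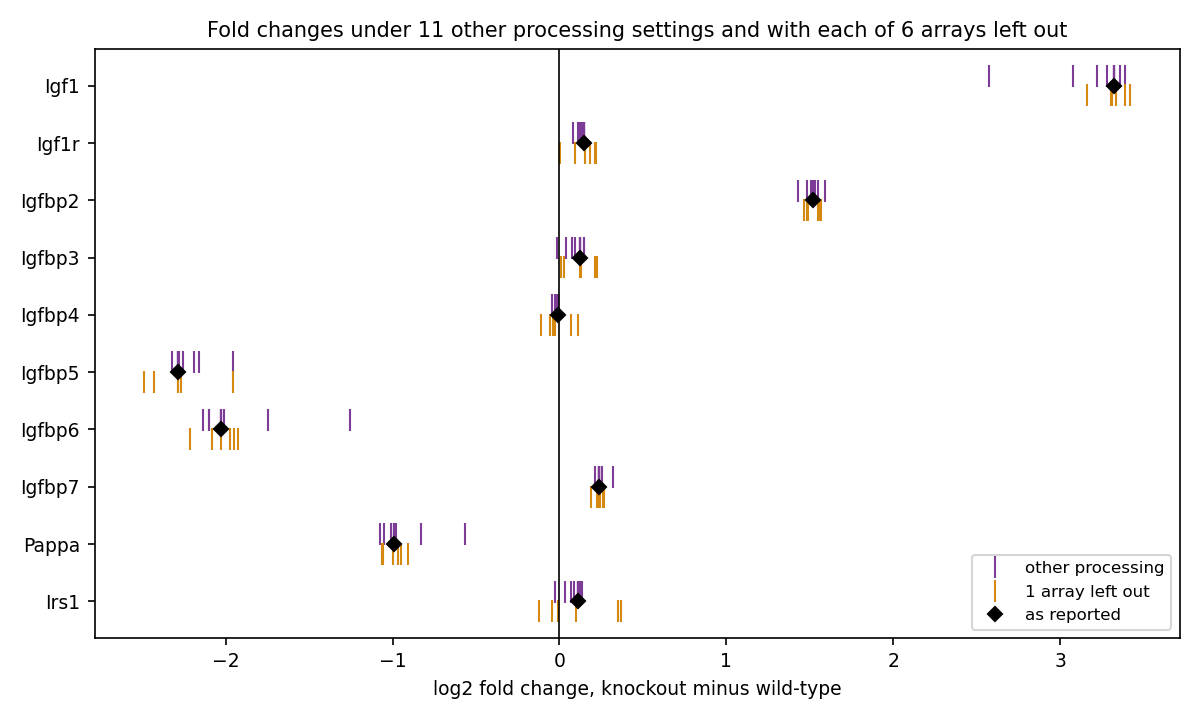
Log2 fold change, knockout minus wild-type (x axis), of the brightest probe of each of the 10 genes as reported (black diamonds), under 11 other processing settings (purple) and with each of the 6 arrays left out (orange). The marks of Igf1, Igfbp2, Igfbp5, Igfbp6 and Pappa stay on their side of 0, and those of Igfbp3, Igfbp4 and Irs1 lie on both sides.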

How the data were processed

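Biotin-labelled cRNA of 6 cultures, 3 per genotype, was hybridised to 1-colour Illumina beadchips. The authors deposited raw summarized intensity values per probe and array, whose unequal array medians show no scaling between arrays, and, per the file headers, a detection p-value beside each. They also deposited a matrix of log2 values, whose near-equal array medians show normalization between arrays. Tools listed in the submitters' processing notes, with no role, were limma 3.10.2, R 2.14.0 and GenomeStudio 2011.1.

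Intensities were processed in R 4.3.3 with limma 3.58.1. Background was estimated from the detection p-values (neqc, offset 16), followed by quantile normalization and log2, which assumes like intensity distributions in both genotypes and shrinks differences of dim probes. Probes with a detection p under 0.05 on at least 3 of 6 arrays (15527 of 45281) were tested with lmFit and eBayes, knockout minus wild-type, adjusted by Benjamini-Hochberg over all of them. The fit was tested on simulated data, in which 50 probes were changed at each size. It recovered 10% of changes of 0.5 on the log2 scale, 62% of 1, 94% of 2 and 100% of 4. Of 136 calls there, 3 were false. Far fewer probes were changed there than were called in the data. Gene symbols came from the platform annotation, updated by gene ID through RefSeq (GRCm38.p6), with 34885 probes of 1 symbol, 18 of several and 10378 unnamed here. The number of arrays limits the precision.

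The genes, lists and tests were chosen with earlier results of these data known. Named genes are the 10 genes with all probes, Fhl2, up to 3 called genes of the smallest p in each pathway group, the tested genes of a group without calls, and the 3 genes nearest to Igf1. Pathway genes whose probes differed in call are also named, as are Htra1, Pik3r1 and some genes that were not called. Alternatives changed the background, normalization, filter, variance model, array weights and replicate block, used the authors' matrix, and left out each array. No source used here gives slides or scan dates, and batches were not tested.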

Additional observations from a re-analysis of the deposited data

How the results depend on the processing

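The calls of Igf1, Igfbp2, Igfbp5, Igfbp6 and Pappa held under all 17 alternatives, with log2 differences between 2.57 and 3.42, 1.43 and 1.59, -2.49 and -1.96, -2.21 and -1.26, and -1.08 and -0.57. Of the 10 genes, 2 were higher and 3 lower under every setting, also with the mean of all tested probes of a gene, except that 3 were higher where Igfbp7 passed (0.24 both with no background correction and with a variance trend and robust estimation). Scaling each array to the same median called 685 higher and 1082 lower of all probes, against 2235 and 2361, and shifted the median of all probes to -0.07; the cause was not tested. Leaving out 1 array gave 1625 to 2163 higher and 1773 to 2190 lower probes.

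Genes that were not called changed sign close to 0, for causes that were not tested. Under median scaling Igfbp3 gave -0.018 and Irs1 -0.027. Leaving out 1 array moved Igfbp4 between -0.11 and 0.11 and Irs1 between -0.13 and 0.37. Igfbp4 gave 0.07 without knockout replicate 1 and 0.11 without wild-type replicate 2. Irs1 gave -0.13 without knockout replicate 1, -0.04 without wild-type replicate 2 and -0.01 without wild-type replicate 3.

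With the replicate number as a block, 2147 probes were higher and 2258 lower, and no call among the 10 genes changed. Deviations of same-numbered samples correlated at 0.12, 0.07 and 0.06, each sample correlating best with its own number, and nothing in the labels says that a number is shared. Igf1r, Igfbp3 and Irs1 include probes close to background, which limits what could be seen there.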
